A study of Rattus norvegicus with 4 samples.

Results

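Apolipoprotein transcripts were compared between the liver RNA of rats given the bile duct toxicant α-naphthylisothiocyanate (ANIT) and that of rats given olive oil alone. The members are all array features with a single gene symbol that begins with Apoa, Apob, Apoc, Apoe, Apoh or Apom, apart from the Apobec and Apobr symbols. This gave 7 of 1936 features, which stood for 5 of the 958 genes named on the array. Apoa4 and Apoc1 had 2 features each, and Apoa1, Apob and Apoe had 1 each. No feature carried an Apoh or Apom symbol, and no feature with several symbols held an apolipoprotein of the rule. Features are named below by the gene and the feature's number in the deposited table.

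Male Sprague-Dawley rats received 75 mg/kg ANIT in olive oil by intraperitoneal injection, or the same volume of olive oil, and the right lateral lobe of the liver was taken 24 h later. ANIT injures the bile duct epithelium and the hepatocytes next to it, and serves as a rodent model of intrahepatic cholestasis. RNA was pooled over 3 rats per condition before labelling, so each condition is 1 pool. Both pools were hybridised together to spotted cDNA arrays, in opposite dyes. Arrays 1 and 3 carried ANIT in Cy5 (the ANIT-Cy5 arrays), and arrays 2 and 4 carried it in Cy3 (the ANIT-Cy3 arrays). The labels state no age. The spread between rats was not measured, and no p-value is given. Every SD (n = 4 arrays) describes repeated hybridisation of what are read as the same pools. It runs over both dye orientations, so it holds the difference between them as well as the spread of repeats. Each value is a ratio of ANIT pool over olive oil pool on the log2 scale. That direction was taken from the order of the channels in the labels and is likely rather than stated, and the base of the logarithm was read as 2. Where "lower" or "higher" is used of a feature, its mean ratio was at least 2-fold in size and all 4 arrays had the same sign. Over all features 3.05% were lower and 0.775% were higher by this rule, and these shares would change places if the ratios ran the other way.

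Apolipoproteins are the protein parts of the lipoprotein particles that carry triglyceride and cholesterol in blood. Apob is the structural protein of the very low density lipoprotein that hepatocytes secrete, and Apoa1 is the main protein of high density lipoprotein. Apoe, Apoc1 and Apoa4 move between particles and affect how these are processed by lipases and taken up by receptors of the low density lipoprotein receptor family. Hepatocytes are a main source of these proteins, and Apoa4 is made by the intestine and, in the rat, also by the liver.

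Several of these genes lie side by side. In RefSeq's gene table for assembly GRCr8, Apoc1 and Apoe are neighbours in the order Apoc2, Apoc4, Apoc1, Apoe, and Apoa1 and Apoa4 lie in the order Apoa1, Apoc3, Apoa4, Apoa5. RefSeq promoter sequences of GRCr8 were found for 3 of the 5 genes. They are shown because Apoc1 was the apolipoprotein that was lower, Apoe is its neighbour, and Apoa4 had features that differed. Each window holds the 250 bases before the start that lies farthest upstream in the table, read 5′ to 3′ on the gene's strand. The windows are chr1:88478306-88478555 (minus strand) for Apoc1, chr1:88485817-88486066 (minus strand) for Apoe and chr8:55435529-55435778 (plus strand) for Apoa4. Capitals mark the matches to 4 short motifs searched on both strands, the GC box GGGCGG, the TATA box TATAAA, the CCAAT box CCAAT and the nuclear receptor motif AGGTCA.
Apoc1: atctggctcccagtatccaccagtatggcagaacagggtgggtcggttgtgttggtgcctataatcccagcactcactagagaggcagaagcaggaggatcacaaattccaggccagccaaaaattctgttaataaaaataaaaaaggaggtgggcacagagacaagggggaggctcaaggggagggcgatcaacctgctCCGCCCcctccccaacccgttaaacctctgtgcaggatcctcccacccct
Apoe: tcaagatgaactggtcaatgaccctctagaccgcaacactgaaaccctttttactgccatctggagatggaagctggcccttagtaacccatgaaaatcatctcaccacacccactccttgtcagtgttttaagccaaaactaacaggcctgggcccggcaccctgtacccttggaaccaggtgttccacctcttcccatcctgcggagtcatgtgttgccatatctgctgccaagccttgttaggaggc
Apoa4: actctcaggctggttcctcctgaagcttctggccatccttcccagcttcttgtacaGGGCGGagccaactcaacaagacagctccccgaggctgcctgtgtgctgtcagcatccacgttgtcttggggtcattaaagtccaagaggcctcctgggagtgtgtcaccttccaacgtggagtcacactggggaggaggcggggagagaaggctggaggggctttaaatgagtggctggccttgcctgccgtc
GGGCGG, which 30.5% of all 33469 promoter windows of this length hold, was found once before Apoc1, on the other strand, and once before Apoa4, on the gene's own strand. No letters of the Apoe window matched any of the motifs. TATAAA was in none of these 3 windows and in 12.9% of all windows, CCAAT in none and 34.0%, and AGGTCA in none and 14.1%. These matches describe letters only.

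Of the apolipoproteins, Apoc1 was lower in the ANIT pool on both of its features and the other 4 genes did not reach 2-fold. In all, 2 of the 7 features were lower and none was higher, against the 3.05% and 0.775% of all features. Both lower features belong to 1 gene and are not separate results. The median ratio of the 7 features was -0.32, beside -0.25 over all features. In liver tissue, fewer cells of a type and less RNA per cell cannot be told apart.

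Apoc1, a small apolipoprotein of very low and high density lipoproteins that slows the uptake of particles by receptors, had on feature 1168 ratios of -1.01 and -0.996 on the ANIT-Cy5 arrays, and -1.48 and -1.56 on the ANIT-Cy3 arrays. Its feature 1261 had ratios of -0.68 and -0.95 on the ANIT-Cy5 arrays, and -1.50 and -1.46 on the ANIT-Cy3 arrays. All 8 values lay below 0, and on both features both ANIT-Cy3 arrays lay below both ANIT-Cy5 arrays. The means were -1.26 ± 0.30, or 2.40-fold lower, for feature 1168 and -1.15 ± 0.40, or 2.21-fold lower, for feature 1261. Averaged over both features, Apoc1 was 2.30-fold lower (-1.20 ± 0.35). If the deposited values were natural logarithms, features 1168 and 1261 would be 3.53-fold and 3.15-fold lower. Among the 59 features that were lower on the array, the 2 Apoc1 features ranked 37 and 51 when counted from the lowest. If the ratios ran the other way, these would be ranks from the highest. The lower call of feature 1261 was close to the limit. With each array centred on its median its mean was -0.98, short of 2-fold, while feature 1168 stood at -1.10. With ANIT in Cy5 alone, feature 1261 stood at -0.82.

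Apoa4, a protein of chylomicrons and high density lipoprotein, did not reach 2-fold on either feature. Feature 662 had ratios of -0.71 and -0.59 on the ANIT-Cy5 arrays, and -0.95 and -0.99 on the ANIT-Cy3 arrays, with a mean of -0.81 ± 0.19. All 4 of its arrays lay below 0, and it was 1.75-fold below equality in the mean. Feature 459 had ratios of -1.05 and -0.79 on the ANIT-Cy5 arrays, and 0.31 and 0.25 on the ANIT-Cy3 arrays, so its sign went with the dye. Its mean was -0.32 ± 0.70, and this SD, which holds the difference between the dye orientations, was larger than the mean itself. At a limit of 1.5-fold, feature 662 joined the Apoc1 features, and 3 of the 7 members were lower and none was higher, against 6.92% and 2.48% of all features at that limit.

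Apoe, the ligand through which lipoprotein remnants bind to receptors, had ratios of -0.13 and -0.44 on the ANIT-Cy5 arrays, and -0.13 and -0.19 on the ANIT-Cy3 arrays. All 4 were below 0 and the mean was -0.22 ± 0.15, near the median of all features. Apob, the structural protein of very low density lipoprotein, had ratios of -0.34 and -0.35 on the ANIT-Cy5 arrays, and 0.26 and 0.14 on the ANIT-Cy3 arrays. The 2 orientations lay on opposite sides of 0, with a mean of -0.07 ± 0.32. Apoa1, which activates the cholesterol-esterifying enzyme Lcat on high density lipoprotein, had ratios of 0.34 and 0.12 on the ANIT-Cy5 arrays, and -0.10 and -0.06 on the ANIT-Cy3 arrays. Its mean of 0.07 ± 0.20 was the only member mean above 0, and its orientations also lay on opposite sides of 0. For Apob and Apoa1 the mean was smaller than the SD over the arrays, which holds the difference between the orientations. These ratios do not show that either transcript was unchanged.

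**Figure D1:**
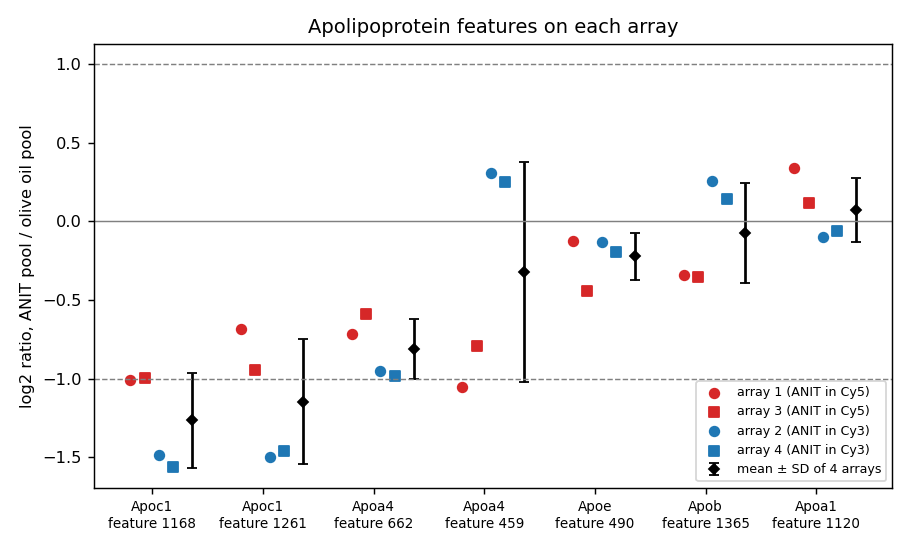
Log2 ratio of ANIT pool over olive oil pool (vertical axis) for each of the 7 apolipoprotein features, ordered by their mean, with red points for the ANIT-Cy5 arrays, blue points for the ANIT-Cy3 arrays, and black diamonds with bars for the mean ± SD of the 4 arrays. Both Apoc1 features lie below 0 on all 4 arrays with means of -1.26 and -1.15, while Apoa4 feature 459, Apob and Apoa1 have points on both sides of 0; dashed lines mark 2-fold.

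The features of 1 gene were then set against each other. The means of the Apoc1 features differed by 0.12 on the log2 scale, and those of the Apoa4 features by 0.49. Over the 261 genes with exactly 2 features the median gap was 0.17. Thus 37.3% of the other such genes had a smaller gap than Apoc1, and 83.8% a smaller gap than Apoa4. Within each array, Apoa4 feature 662 minus feature 459 was 0.34 and 0.20 on the ANIT-Cy5 arrays, and -1.26 and -1.24 on the ANIT-Cy3 arrays. The order of the Apoa4 features therefore turned round with the dye orientation. For Apoc1, feature 1168 minus feature 1261 was -0.33 and -0.05 on the ANIT-Cy5 arrays, and 0.02 and -0.11 on the ANIT-Cy3 arrays, with no such turn. Whether the Apoa4 features measure the same transcript was not tested.

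Differences between members on 1 array do not change when the array is centred. Apoc1 feature 1168 lay below its neighbour Apoe on all 4 arrays, with differences of -0.88 and -0.55 on the ANIT-Cy5 arrays, and of -1.35 and -1.37 on the ANIT-Cy3 arrays (mean difference of log2 ratios -1.04 ± 0.40). Feature 1261 also lay below Apoe on all 4 arrays (mean difference -0.92 ± 0.46). The adjacent genes Apoc1 and Apoe thus had unequal ratios in both dye orientations. Against Apoa1 the difference was -1.34 ± 0.16 for Apoc1 feature 1168 and -1.22 ± 0.20 for feature 1261, which is a smaller spread over the arrays than against Apoe. Against Apob it was -1.19 ± 0.62 and -1.07 ± 0.71, again below 0 on all 4 arrays. In the other cluster, Apoa4 feature 662 lay below Apoa1 on all 4 arrays (-0.88 ± 0.15), whereas Apoa4 feature 459 lay below it on 2 arrays only (-0.40 ± 0.90).

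**Figure D2:**
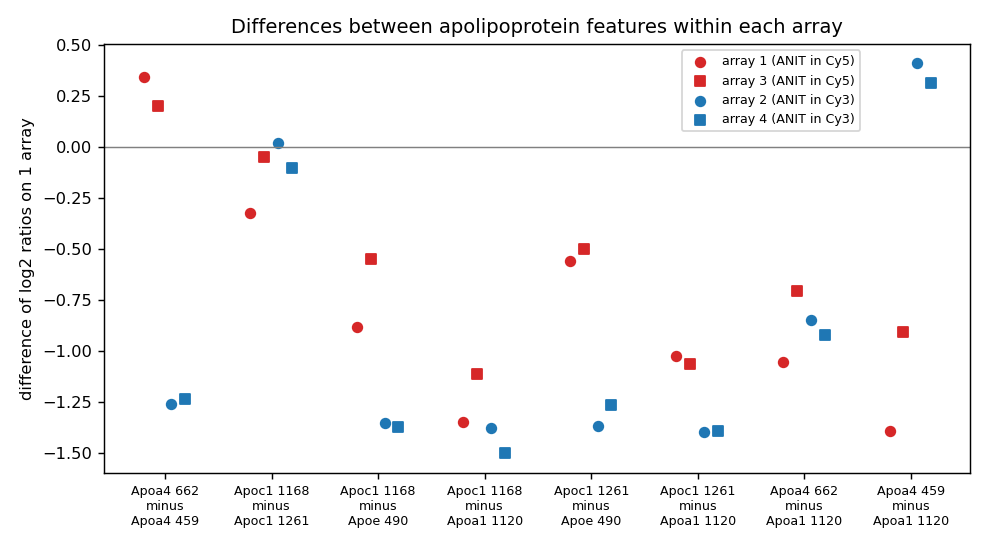
Difference of log2 ratios between a pair of apolipoprotein features on the same array (vertical axis), with red points for the ANIT-Cy5 arrays and blue points for the ANIT-Cy3 arrays. The 2 Apoc1 features lie below Apoe and Apoa1 on all 4 arrays, while Apoa4 feature 662 minus feature 459 is above 0 on both red points and near -1.25 on both blue points.

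The dye swap was used to describe how far each member followed the dye. The dye contrast, which is the mean ratio on the ANIT-Cy5 arrays minus that on the ANIT-Cy3 arrays, divided by 2, had a median of -0.40 over all features, and the medians of the arrays were -0.68 and -0.64 on the ANIT-Cy5 arrays, and 0.31 and 0.35 on the ANIT-Cy3 arrays. The members had a median dye contrast of 0.16, and 6 of the 7 lay above the median of all features. The contrast was above 0 for 4 of the 7 members, and for 21.9% of all features. Apoc1 was at the upper end. Its features had dye contrasts of 0.26 and 0.33, and 98.6% and 99.9% of the other features had a lower contrast. Apoa4 feature 662 (0.16) and Apoa1 (0.16) were also above 0, Apoe (-0.06) was near it, and Apob (-0.27) and Apoa4 feature 459 (-0.60) were below. Feature 459 was the only member below the median of all features. Spot intensities were not used here, and whether the contrast goes with the brightness of a spot was not tested.

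**Figure D3:**
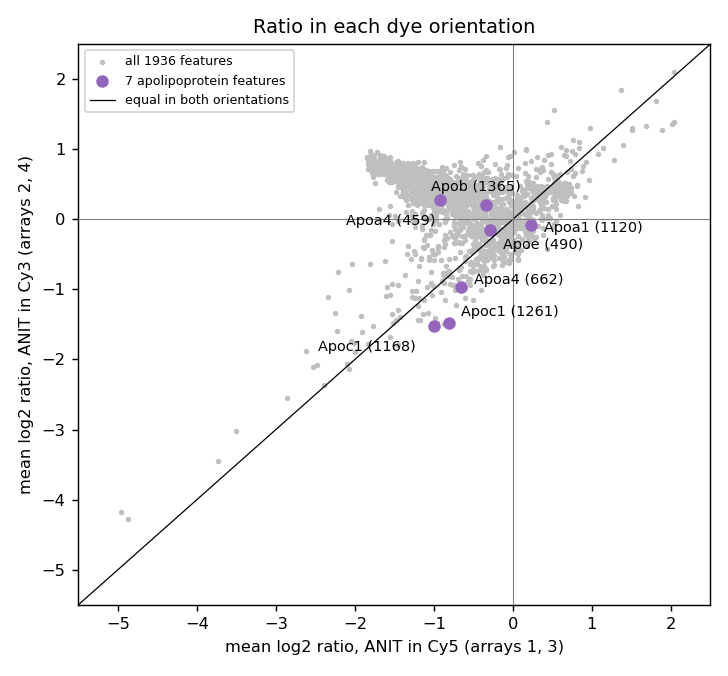
Mean log2 ratio of ANIT pool over olive oil pool on the ANIT-Cy5 arrays (horizontal axis) against that on the ANIT-Cy3 arrays (vertical axis) for all 1936 features (grey) and the 7 apolipoprotein features (purple, labelled with gene and feature number). The Apoc1 features lie in the lower left below the line of equal ratios, at -1.003 and -0.815 on the ANIT-Cy5 arrays and -1.52 and -1.48 on the ANIT-Cy3 arrays, whereas Apoa4 feature 459 lies in the upper left with most features that followed the dye.

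Centring each array changed the members' arrays more than their means. The centred ratios of Apoc1 feature 1168 were -0.33 and -0.35 on the ANIT-Cy5 arrays, and -1.79 and -1.91 on the ANIT-Cy3 arrays, so the size of the difference depended on the orientation while the sign did not. Those of feature 1261 were -0.01 and -0.30 on the ANIT-Cy5 arrays, and -1.81 and -1.80 on the ANIT-Cy3 arrays. Apoa4 feature 662, centred, stood near 0 on the ANIT-Cy5 arrays (-0.04 and 0.05) and at -1.27 and -1.33 on the ANIT-Cy3 arrays. Apoa4 feature 459 went the other way, and its centred SD fell to 0.16, against 0.70 as deposited. For Apoc1, the offset that brings most features together across the arrays thus moved the orientations apart, with an SD of 0.87 for feature 1168 after centring and of 0.30 as deposited.

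By the median gap, arrays 2 and 4 repeated each other more closely for the members than over all features, and arrays 1 and 3 less closely. Between arrays 1 and 3 the gaps of the 7 features ran between 0.01 and 0.32, with a median of 0.22, beside a median of 0.14 over all features. Between arrays 2 and 4 they ran between 0.03 and 0.11, with a median of 0.06, beside 0.11 over all features. The Apoc1 ratios were larger in size than any of these gaps.

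Genes of lipoprotein handling, regulators of apolipoprotein genes and other plasma proteins of hepatocytes were read from 5 lists, by feature. The apolipoprotein median of -0.32 was near that of the plasma lipases and lipoprotein enzymes (-0.32, 4 features) and of the regulators (-0.34, 13 features), and all 3 were within 0.1 of the median of all features. This nearness held only in the mean over both orientations. On the ANIT-Cy5 arrays the medians were -0.65 for the apolipoproteins, -0.93 for the enzymes and -0.81 for the regulators. On the ANIT-Cy3 arrays they were -0.16, 0.32 and 0.19 in turn. Over the 47 features of the 5 lists, 1 was lower and none was higher, against 3.05% and 0.775% of all features. That feature, from the list of other plasma proteins, was Igfals, the acid-labile subunit that holds insulin-like growth factors in plasma. It stood at -1.18 ± 0.11, close to Apoc1.

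Lipoprotein receptors had 2 features, neither past 2-fold. Scarb1, the high density lipoprotein receptor, stood at -0.15 ± 0.09, below 0 on all 4 arrays. Cd36, a fatty acid and lipoprotein scavenger receptor, stood at 0.49 ± 0.55, near 0 on the ANIT-Cy5 arrays (-0.05 and 0.09) and above 0 on the ANIT-Cy3 arrays (1.03 and 0.87). The low density lipoprotein receptor and the other listed receptors were not measured under the symbols used.

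Among the enzymes that act on lipoproteins in plasma, Pon1, a paraoxonase bound to high density lipoprotein, came nearest to Apoc1. Its feature 656 had ratios of -0.64 and -0.80 on the ANIT-Cy5 arrays, and -1.28 and -1.17 on the ANIT-Cy3 arrays, and its mean of -0.97 ± 0.30 fell just short of 2-fold. Its feature 804 stood at -0.30 ± 0.98 and changed sign with the dye, as did the feature of Lpl, lipoprotein lipase (-0.33 ± 1.05). Lipc, the hepatic lipase, stood at 0.07 ± 0.22. None of the 4 features was lower or higher.

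Lipoprotein assembly and lipid export had 4 features, with a median of -0.05, and none past 2-fold. Dgat1, which makes triglyceride, stood at -0.28 ± 0.91 and 0.18 ± 0.27 on its features. Sar1b, a small GTPase of the vesicles that carry lipoproteins out of the endoplasmic reticulum, stood at -0.19 ± 0.17. P4hb, the protein disulphide isomerase that is also a subunit of the microsomal triglyceride transfer protein complex, stood at 0.10 ± 0.16.

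Of the 13 features of nuclear receptors that regulate apolipoprotein genes, none was lower or higher. Nr1h4, the bile acid receptor, had the lowest mean (-0.85 ± 0.46, with all 4 arrays below 0). Next came Nr3c1, the glucocorticoid receptor, on its feature 1361 (-0.82 ± 0.35). Rxra, the partner of many nuclear receptors, followed on its feature 1225 (-0.69 ± 0.16). The other features of these genes were nearer 0. Nr3c1 features 340 (-0.43 ± 0.62) and 217 (-0.28 ± 0.54) changed sign with the dye, and Rxra feature 1512 stood at -0.34 ± 0.25. The features above 0 were those of Nr1h2, a sterol receptor (0.55 ± 0.12), and of Nr0b2, a repressor induced by bile acids (0.59 ± 0.14 and 0.64 ± 0.22). These 3 features were above 0 on all 4 arrays.

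The other plasma proteins of hepatocytes had 24 features of 14 genes, with a median of -0.09, between -1.18 for Igfals and 0.91 for Cp, ceruloplasmin. Besides Igfals, the largest means in size were those of Cp on its feature 1862 (0.91 ± 0.56) and of Fgg, the gamma chain of fibrinogen, on its feature 203 (0.79 ± 0.17). The other feature of each gene was nearer 0, at 0.24 ± 0.11 for Cp feature 57 and 0.34 ± 0.23 for Fgg feature 287. Both proteins are made more in the acute phase response, which was not tested here, and neither reached 2-fold. Ttr and Tf, abundant hepatocyte transcripts, stood at -0.13 ± 0.27 and 0.00 ± 0.38.

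**Figure D4:**
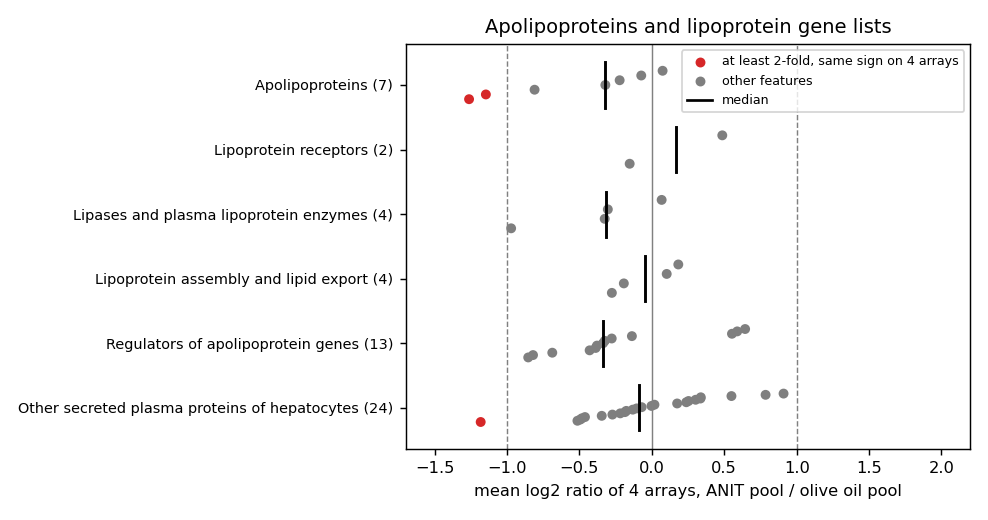
Mean log2 ratio over the 4 arrays of ANIT pool over olive oil pool (horizontal axis) for each feature of the apolipoproteins and of 5 lists of related genes, with the number of features in parentheses, red points for features at least 2-fold with the same sign on all arrays, grey points for the others and a black bar for the median. The red points are the 2 Apoc1 features and Igfals.

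Ratios of 2 pools give no levels, so the tissue could not be checked by how abundant its markers are. The hepatocyte markers measured were Ttr, Tf and Cyp2e1, with 9 features between -1.24 and 0.00 and a median of -0.14. Of these, 2 features of Cyp2e1 were lower and none was higher, against 3.05% and 0.775% of all features. The remaining Cyp2e1 features lay nearer 0, between -0.46 (feature 1345) and -0.10 (feature 437), and were neither lower nor higher. Among 53 listed markers of cholangiocytes, macrophages, endothelial cells, stellate cells, neutrophils and lymphocytes, 14 features were measured, none of them of the macrophage list. None was lower or higher, against 3.05% and 0.775% of all features, and they lay between -0.84 and 0.13. With so few features at such shares, the absence of calls does not show that these cell types were unchanged. A dye contrast of -0.5 or below was found for 6 of the 14. Over all features the median contrast was -0.40, and 37.2% of the other features lay below Apoa4 feature 459 (-0.60). Macrophages also make Apoe and Apoc1, and the part of macrophages in these ratios was not tested.

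By Euclidean distance over the 4 arrays, the 3 features of other genes nearest to Apoc1 feature 1168 were those of Ang, a secreted ribonuclease (distances 0.19 and 0.21), and a feature of Cyp27a1, an enzyme of bile acid synthesis (0.31). Their means were -1.22 ± 0.31, -1.18 ± 0.36 and -1.30 ± 0.17, all lower by the rule. Both Ang features were further below 0 on the ANIT-Cy3 arrays, as Apoc1 was. The features were picked by nearness on these same arrays, so means and a dye pattern like those of Apoc1 follow from the choice. The features nearest to Apoa1 were those of Sod2 (distance 0.10), Pcbp2 (0.11) and Slc16a1 (0.11), with means of 0.08, 0.08 and 0.10. Each of these nearness ranks rests on 4 arrays of the same pools and holds any shared dye effect.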

How the data were processed

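The authors deposited 1 log ratio of the channels per feature and array, read here as log2, for 1936 features and 4 arrays. Neither scanner, background correction, normalization nor log base was stated. Array medians differed, so the values were not median-centred on deposit. They were used as deposited, with ANIT taken as the numerator on each array, an assumption from the channel order in the labels. RNA was mixed before labelling, per the labels' protocols, so the arrays are technical repeats and no test was run. The number of arrays limits the precision.

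Features were named through the platform annotation, and the 5 member symbols were identical in RefSeq's GRCr8 gene table. Members and lists were chosen with earlier results of these data known. Named were all members, the 3 features of each list with the largest absolute mean, features past 2-fold, and the 3 nearest features of other genes; further list features were named after their values were seen. The size rule was tested on simulated data that held no spread between rats or pools, so that test says nothing of such spread. Alternatives were centring, single orientations, each array left out, natural logarithms, gene means, opposite sign, and limits of 1.5-fold and 3-fold. Python 3.11.15 was used with pandas 2.3.3, numpy 2.4.6 and matplotlib 3.10.9.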

Additional observations from a re-analysis of the deposited data

How the results depend on the processing

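The count of 2 lower and 0 higher apolipoprotein features was the same with each array left out (2 lower in each case, 0 higher). There 3% to 3.15% of all features were lower and 0.671% to 0.775% higher, and the median of the members lay between -0.39 and -0.30. In settings with fewer arrays, the same sign was asked only of the arrays used. The lower count was 1 with centred arrays (2.48% of all features) and 1 with ANIT in Cy5 alone (34.5%). It was 1 over 5 genes when features of a gene were averaged, where fewer values are counted and no share was computed. It was 2 with ANIT in Cy3 alone (2.84%). It was 0 at 3-fold (1.19%), 3 at 1.5-fold (6.92%) and 3 with natural logarithms (5.84%), where Apoa4 feature 662 was added. With the opposite sign 2 features would be higher and 0 lower, against 3.05% and 0.775% of all features, and the median would be 0.32. The median, reported as -0.32, was -0.65 on the ANIT-Cy5 arrays alone, -0.16 on the ANIT-Cy3 arrays alone and -0.16 with centred arrays, beside -0.66, 0.34 and -0.09 over all features. Of 47 features the lists held 1 past the rule, but 2 with centred arrays, 10 with ANIT in Cy5 alone and 3 with ANIT in Cy3 alone. In these 3 settings in turn, 2.48%, 34.5% and 2.84% of all features were lower, and 1.14%, 0.671% and 0.981% were higher. The cause of the changed list counts was not tested. Read as natural logarithms, the ratios of Apoc1 would be -1.82 (feature 1168) and -1.65 (feature 1261) and that of Apoa4 feature 662 -1.17. With centred arrays Apoe stood at -0.06. The sign of single members changed for Apob after centring (0.09), and on the ANIT-Cy3 arrays alone for Apob (0.20), Apoa4 feature 459 (0.28) and Apoa1 (-0.08). Both Apoc1 features were below 0 with centred arrays, in each orientation alone and with each array left out. Centring raised the median of all features by 0.17. No paired analysis was possible because no groups of samples share replicate numbers. Each deposited ratio already pairs the pools within an array, and the single pool per condition limits testing.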
